A study of Mus musculus with 7 samples.

Results

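Resident macrophages of an artery wall were followed through 10 marker genes, Tyrobp, Fcer1g, Csf1r, Adgre1, Mrc1, Cd163, Cd68, Aif1, C1qa and Lyz2. A marker was taken where a row of the array was annotated with that gene symbol alone, which held for 9 of the 10, each with 1 row, out of 14860 genes with a row of their own and 23332 rows in all. Lyz2 has 0 such rows, since both rows that name it also name Lyz1, and it has no value here. The markers were compared between mesenteric arteries of 3 male mice and of 4 non-transgenic littermates. The 3 mice carried a transgene for human PPARγ with the dominant-negative mutation P467L, driven by the smooth muscle myosin heavy chain promoter, and are called P467L below. The littermates carried no transgene and are called NT. The promoter directs the transgene to smooth muscle. The sources used here give neither age nor strain. Each array held the RNA of 1 mouse, read on an Affymetrix mouse exon array.

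Tissue macrophages settle in the adventitia, the outer coat of an artery, and depend on the growth factor receptor that Csf1r encodes. Their surface receptors signal through small adaptor proteins with an activation motif, among them the products of Tyrobp and Fcer1g, while Mrc1 and Cd163 encode receptors that take up glycoproteins and haemoglobin complexes. PPARγ is a nuclear receptor known in macrophages for its part in lipid handling and alternative activation, while here it was blocked by a transgene aimed at another cell of the vessel. RNA came from whole artery, so a change in the number of macrophages and a change in RNA per macrophage cannot be told apart.

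The stretch upstream of the transcription start is shown for 4 markers, the uptake receptor genes Mrc1 and Cd163, which covaried, and Cd68 and Aif1, which had the largest differences in mean. The sequences are RefSeq's for the GRCm38.p6 build, 250 bases each, ending at the base before the annotated start. Promoters of 6 of the 10 markers, 5 of them with a row, were matched by symbol. Capitals mark GAGGAA on either strand (TTCCTC where it lies on the reverse strand). It is the core of the site that the myeloid transcription factor PU.1 is known to bind, and no other motif was searched. Mrc1 lies at chr2:14229164-14229413 on the plus strand, Cd163 at chr6:124304401-124304650 on the plus strand, Cd68 at chr11:69666171-69666420 on the minus strand and Aif1 at chr17:35176053-35176302 on the minus strand.
Mrc1: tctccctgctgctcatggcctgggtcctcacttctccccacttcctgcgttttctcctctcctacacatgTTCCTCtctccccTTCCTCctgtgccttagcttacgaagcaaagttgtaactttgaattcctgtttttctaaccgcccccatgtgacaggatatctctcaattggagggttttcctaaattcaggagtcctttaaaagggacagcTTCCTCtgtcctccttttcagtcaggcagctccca
Cd163: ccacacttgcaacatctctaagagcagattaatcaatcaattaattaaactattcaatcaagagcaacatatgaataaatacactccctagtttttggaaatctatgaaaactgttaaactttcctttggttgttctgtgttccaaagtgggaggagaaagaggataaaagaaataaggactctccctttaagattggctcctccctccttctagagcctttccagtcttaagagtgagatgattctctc
Cd68: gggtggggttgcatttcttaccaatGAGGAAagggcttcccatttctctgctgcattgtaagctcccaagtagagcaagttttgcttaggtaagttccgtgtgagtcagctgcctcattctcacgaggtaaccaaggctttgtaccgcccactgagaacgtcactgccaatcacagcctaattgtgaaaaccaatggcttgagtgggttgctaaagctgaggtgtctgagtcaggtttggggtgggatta
Aif1: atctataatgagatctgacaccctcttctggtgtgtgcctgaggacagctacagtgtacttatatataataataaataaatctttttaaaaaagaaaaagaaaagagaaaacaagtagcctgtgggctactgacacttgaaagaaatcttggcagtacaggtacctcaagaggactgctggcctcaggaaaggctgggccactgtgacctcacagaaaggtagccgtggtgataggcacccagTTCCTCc
The motif occurred 3 times before Mrc1, starting 180, 167 and 35 bases upstream, once before Cd68 at 225 bases and once before Aif1 at 7 bases. It was found in 3 of the 6 matched promoters, and in 23.3% of the 32851 promoters of the same length in the table. No match was found in these windows of Cd163, Fcer1g and Lyz2.

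Values are log2 expression values made by the authors with RMA, which makes the arrays alike in distribution and is known to shrink differences of dim rows. Array medians lay between 6.29 and 6.34. Upper quartiles ran from 7.10 in P467L replicate 3 to 7.29 in NT replicate 1, and Pearson's r between any pair of arrays across rows was 0.954 to 0.979. The smooth muscle markers Myh11 and Acta2 were bright on every array, Myh11 at 11.32, 11.43 and 11.44 in P467L and at 11.44 to 11.57 in NT artery. Acta2 lay between 11.94 and 12.02 in P467L and between 11.97 and 12.08 in NT artery. With 7 arrays, the precision is limited by their number. Csf1r, Adgre1 and, on all arrays but P467L replicates 2 and 3, C1qa lay below the median of their array. So did Mrc1 and Cd163 in P467L replicate 3, at 6.0 and 6.04, and Cd163 in NT replicate 4, at 6.25.

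The signalling adaptor gene Tyrobp, which encodes DAP12, varied most between mice. It was at 8.40, 8.92 and 7.49 in P467L replicates 1, 2 and 3 and at 8.77, 8.0, 8.07 and 7.76 in NT replicates 1, 2, 3 and 4. The P467L mice held both the highest and the lowest value, 2.69-fold apart, and the groups overlapped throughout. The means were 8.27 ± 0.72 (SD, n = 3) in P467L and 8.15 ± 0.43 (SD, n = 4) in NT artery, 0.12 apart (standard error 0.40, limma adjusted p = 1). Fcer1g, the other adaptor, known as the common γ chain of Fc receptors, was at 7.72, 7.53 and 7.32 in P467L and at 7.65, 7.16, 7.50 and 7.26 in NT artery. Its highest value was in P467L replicate 1 and its lowest in NT replicate 2, and the difference of 0.13 was less than the SDs of 0.20 and 0.22.

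Csf1r, the receptor for the macrophage growth factors CSF1 and IL-34, was nearly flat. Its values were 6.19, 6.29 and 6.19 in P467L and 6.26, 6.18, 6.15 and 6.19 in NT artery, with 3 arrays at 6.19. The difference was 0.03, with a 95% interval from -0.08 to 0.14. Only 13.4% of all rows had a smaller SD over the arrays, against 92.1% for Tyrobp. Adgre1 encodes the adhesion-type receptor by which mouse macrophages are commonly stained. It was at 5.88, 5.96 and 5.77 in P467L and at 5.78, 5.60, 5.77 and 5.68 in NT artery. P467L replicates 1 and 2 lay above all NT mice, and P467L replicate 3 was level with NT replicate 3. The difference of 0.16 exceeded the SDs of 0.095 and 0.085 within the groups, but its 95% interval ran from -0.0024 to 0.33 (limma, adjusted p = 1).

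The uptake receptor genes behaved like Tyrobp. Mrc1, the mannose receptor CD206, was at 6.67, 7.18 and 6.0 in P467L and at 6.90, 6.47, 6.59 and 6.39 in NT artery. Cd163, the scavenger receptor for haptoglobin-haemoglobin complexes, was at 6.46, 6.84 and 6.04 in P467L and at 6.52, 6.46, 6.46 and 6.25 in NT artery. For both genes P467L replicate 2 was the highest and P467L replicate 3 the lowest of the 7 mice, so the NT values lay inside the range of the P467L values. The differences were 0.03 for Mrc1 and 0.02 for Cd163, far below the P467L SDs of 0.59 and 0.40.

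Cd68 and Aif1 had the largest differences in mean among the markers. Cd68, a glycoprotein of late endosomes and lysosomes, was at 7.38, 7.72 and 6.95 in P467L and at 7.15, 7.02, 7.12 and 7.01 in NT artery. Again P467L replicates 1 and 2 lay above all NT mice and P467L replicate 3 below them, and the difference of 0.28 was less than the P467L SD of 0.39. Aif1 encodes IBA1, a calcium- and actin-binding protein of macrophages. It was at 7.44, 7.52 and 7.10 in P467L and at 7.08, 6.84, 7.10 and 6.98 in NT artery. The lowest P467L mouse equalled the highest NT mouse. The Aif1 means were 7.35 ± 0.22 (SD, n = 3) in P467L and 7.0 ± 0.12 (SD, n = 4) in NT artery, 1.28-fold apart. The difference of 0.35 had a standard error of 0.12 and a 95% interval from 0.059 to 0.65 that is not corrected for the number of rows (limma, unadjusted p = 0.0259, adjusted p = 1).

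C1qa, a chain of the complement protein C1q that macrophages secrete, followed another order. It was at 5.82, 6.60 and 6.57 in P467L and at 6.22, 6.19, 6.24 and 6.10 in NT artery. Here P467L replicate 1 was the lowest of the 7 mice, P467L replicates 2 and 3 were the highest, and the NT mice lay within 0.14 of each other. The difference of 0.14 was less than the P467L SD of 0.44.

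**Figure D1:**
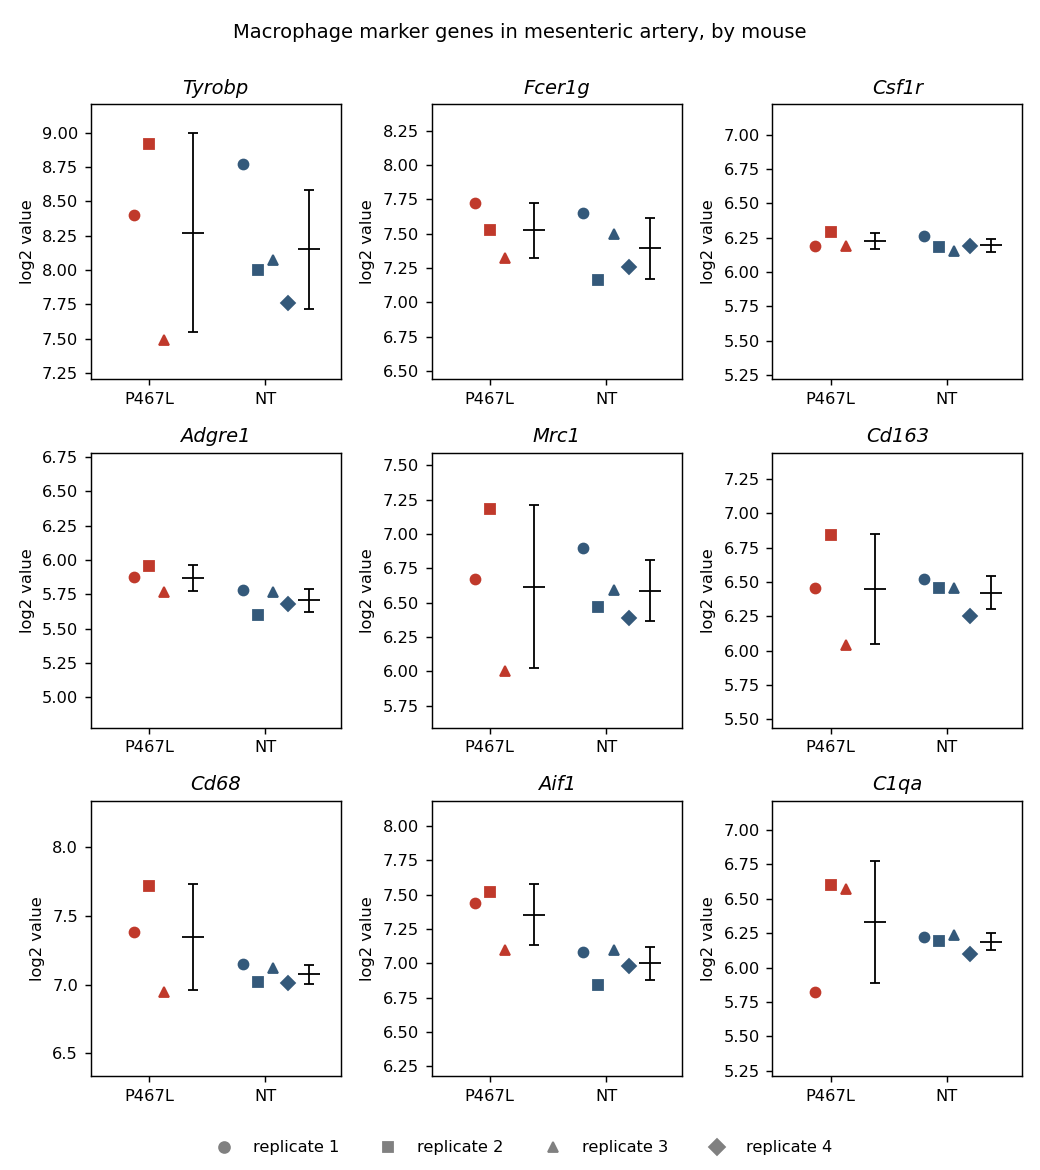
Log2 value of each of the 9 measured markers (y axis, a window of equal height in every panel) in P467L and NT mesenteric artery (x axis). Symbols give the replicate number, and the bar beside each group is its mean ± SD (n = 3 and 4). Tyrobp and Mrc1 spread widest, with P467L replicate 2 at the top and P467L replicate 3 at the bottom, while Csf1r is nearly flat.

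Taking the markers as a group, 9 of 9 had higher means in P467L artery, where 47.7% of all rows did. Their median difference was 0.13, against -0.0025 over all rows, and the single differences ran from 0.02 to 0.35. No marker passed an adjusted p of 0.05, as was the case for every row of the array (0 of 23332, 0.00% in either direction). At an unadjusted p of 0.05 limma listed 1 of 9 markers, Aif1, against 3.10% of all rows (1.55% higher and 1.56% lower in P467L). The groups overlapped for all 9 markers, while 2.57% of all rows showed no overlap (1.29% higher and 1.28% lower in P467L). An exact permutation test, two-sided, of 3 against 4 mice cannot go below p = 0.0571, and the markers gave 0.114 (Aif1), 0.171 (Adgre1), 0.286 (Cd68) and 0.40 to 1 (the other 6).

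The common direction depended most on P467L replicate 2. Without it 5 of 9 markers had higher means (45.1% of all rows) and the median difference was 0.0075, while Tyrobp, Csf1r, Mrc1 and Cd163 had lower ones. Without NT replicate 4 the count was 6 of 9 (45.8% of all rows), with Tyrobp, Mrc1 and Cd163 lower and a median of 0.087. Without NT replicate 2 it was 8 of 9 (46.9%), with Mrc1 lower and a median of 0.07. It stayed at 9 of 9 without P467L replicate 1 (45.4%, median 0.055), P467L replicate 3 (52.6%), NT replicate 1 (52.4%) or NT replicate 3 (44.8%). Without P467L replicate 3 the median was 0.23, and Adgre1, Cd68 and Aif1 then did not overlap between groups, 3 of 9 against 5.57% of all rows. C1qa did not overlap without P467L replicate 1 (3.32% of all rows), nor Aif1 without NT replicate 3 (1.89%).

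**Figure D2:**
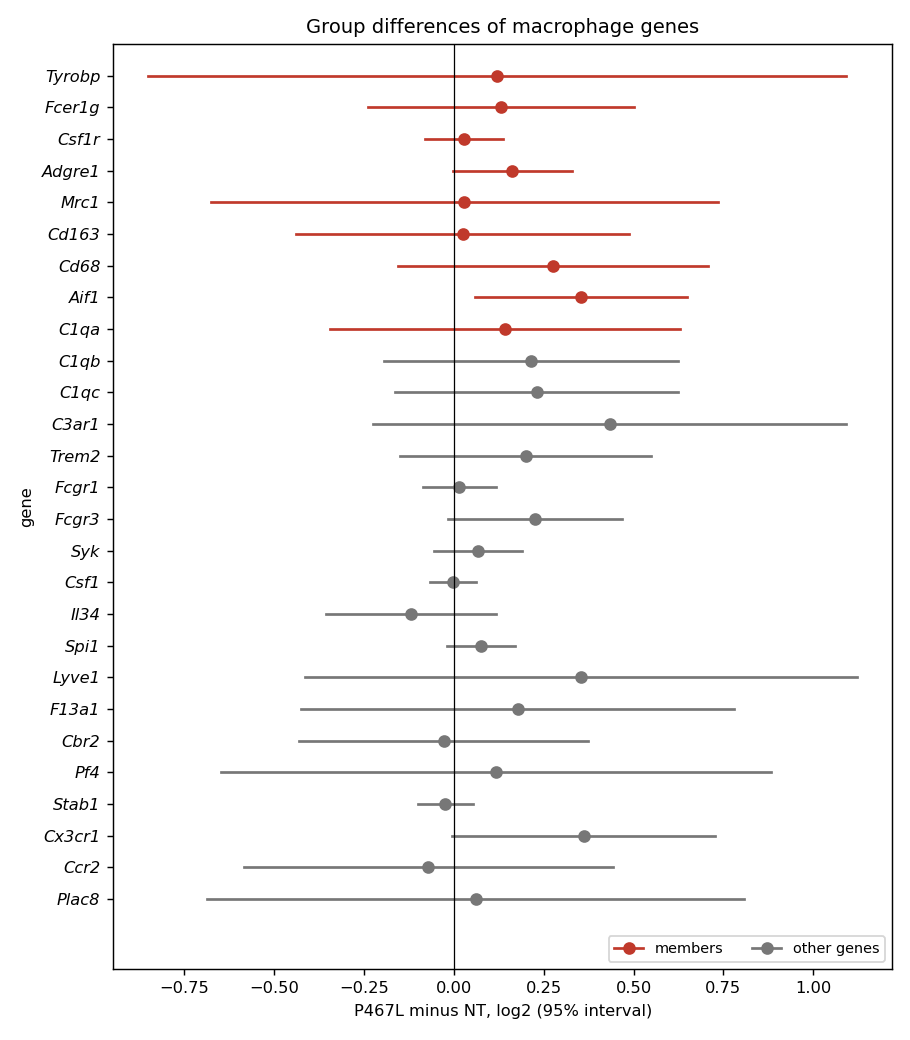
Difference in log2 value, P467L minus NT (x axis, point), with its 95% interval from limma (line), for the 9 markers (red) and for other macrophage and monocyte genes named in the text (grey). All 9 marker points lie at or to the right of 0.02, and the interval of Aif1, from 0.059 to 0.65, is the one marker interval that leaves out 0.

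The spread between mice was wider among P467L than among NT arteries. The SD was larger in P467L for 8 of 9 markers, Fcer1g being the exception, with a median ratio of SDs, P467L over NT, of 1.88. Over all rows the SD was larger in P467L in 58.9%, with a median ratio of 1.23, and the ratio was not tested. Array weights fitted by limma over all rows are lower for arrays that deviate more. They were 0.46 and 0.33 for P467L replicates 2 and 3, against 0.75 (NT replicate 1) to 3.54 (P467L replicate 1) for the rest. Averaging each marker's log2 deviation from its own mean over the arrays gave 0.078, 0.37 and -0.20 in P467L replicates 1, 2 and 3 and 0.12, -0.15, -0.029 and -0.18 in NT replicates 1, 2, 3 and 4. All 9 markers were above their own mean in P467L replicate 2, which was the highest array for 8 of them. In P467L replicate 3 only 1 was above its mean, C1qa, and in NT replicate 4 none was, with 0 of 9.

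**Figure D3:**
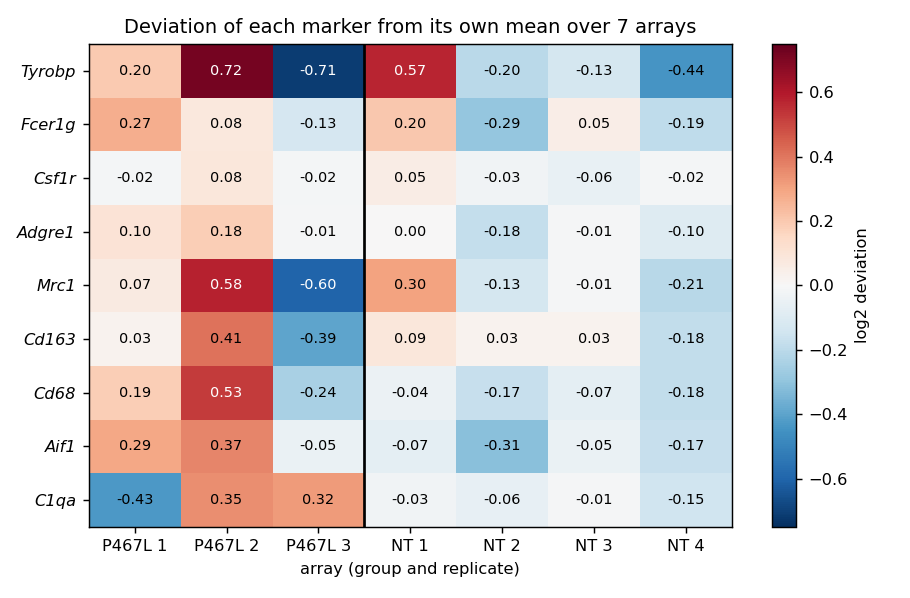
Log2 deviation of each marker (rows) from its own mean over the 7 arrays, by array (columns, P467L to the left of the line and NT to the right), with the value in each cell. P467L replicate 2 is above the mean for all 9 markers and P467L replicate 3 below it for 8, C1qa being the exception.

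How closely the markers moved together was measured over the 7 mice for the 36 pairs of the 9 genes. Pearson's r was positive in 35 of 36 pairs, with a median of 0.60 and a range from -0.27 to 0.97. By exact permutation of the arrays (5040 orders, two-sided), with Benjamini-Hochberg adjustment over the 36 pairs, 4 pairs passed 0.05. Of these, 3 lie among the adaptor gene Tyrobp and the uptake receptor genes Mrc1 and Cd163.

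Tyrobp and Mrc1 had r = 0.97 and Spearman's rho = 1 (exact permutation p = 0.0004 for each, the smallest possible, adjusted p = 0.0143 for each). Mrc1 and Cd163 had r = 0.96 (adjusted exact p = 0.0214) and rho = 0.96 (adjusted exact p = 0.0200). For Tyrobp and Cd163 r was 0.91 (adjusted exact p = 0.0214) and rho was 0.96 (adjusted exact p = 0.0200). Leaving out the pair of arrays farthest from the median of the first gene kept these at 0.94 for Tyrobp with Mrc1, 0.76 for Mrc1 with Cd163 and 0.89 for Tyrobp with Cd163.

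The fourth pair was Adgre1 with Aif1, at r = 0.97 (adjusted exact p = 0.0214), and at 0.94 without the arrays farthest from the median. Its rho of 0.89 missed the threshold (adjusted exact p = 0.0619). Cd68 had r = 0.89 to Aif1, 0.86 to Adgre1, 0.84 to Cd163 and Mrc1 and 0.81 to Tyrobp (adjusted exact p = 0.0686 to 0.10). Without the arrays farthest from the median, Cd68 with Aif1 was at 0.29 and with Adgre1 at 0.83. With Cd163 it was then at 0.44, with Mrc1 at 0.53 and with Tyrobp at 0.91. The rho of Cd68 with Aif1 was 0.63 (adjusted exact p = 0.290), so the relation of Cd68 with Aif1 rests on those arrays. By rank Cd68 passed with Tyrobp and with Mrc1 (rho = 0.96, adjusted exact p = 0.0200 for each). Between the genes Tyrobp, Mrc1 and Cd163 on one side and Adgre1, Cd68 and Aif1 on the other, a division made after the values were seen, the 9 values of r ran from 0.53 to 0.84 with a median of 0.61. After subtracting the group means these 9 values ran from 0.72 to 0.97. Without P467L replicate 2 they ran from 0.070 to 0.71 with a median of 0.34, while r among Tyrobp, Mrc1 and Cd163 was 0.85 to 0.96.

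Over all 7 arrays C1qa followed none of the others. Its r with the other 8 markers ran from -0.27 (Fcer1g) to 0.43 (Csf1r) with a median of 0.080, whereas the 28 pairs without C1qa ran from 0.38 to 0.97 with a median of 0.69. The smallest exact permutation p of a C1qa pair was 0.317 before adjustment. The r of the 8 C1qa pairs depended on single arrays. Without P467L replicate 3 it ran from -0.15 to 0.73 with a median of 0.46. Without P467L replicate 2 it ran from -0.81 to 0.0023 with a median of -0.51. Csf1r had r from 0.38 to 0.77 with the 7 markers other than C1qa, and 0 of these passed. Without P467L replicate 2 and NT replicate 1, the arrays farthest from its median, the r of Csf1r with Tyrobp was -0.24, so that relation rests on those arrays.

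**Figure D4:**
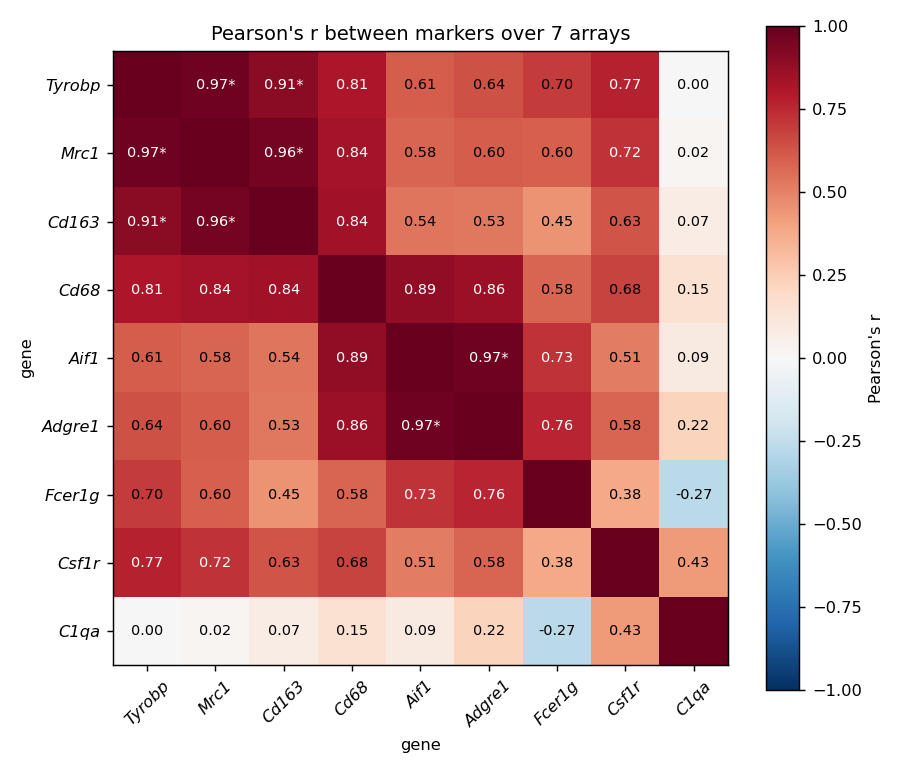
Pearson's r between the markers over the 7 arrays (both axes list the 9 genes, and colour and number give r). Asterisks mark the 4 pairs with an adjusted exact permutation p under 0.05, and the row of C1qa holds values from -0.27 to 0.43.

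The other chains of C1q, whose genes lie next to each other and to C1qa in the RefSeq gene table, were compared with it. C1qb was at 7.20, 7.69 and 7.28 in P467L and at 7.42, 6.89, 7.17 and 7.22 in NT artery, and C1qc at 6.81, 6.93 and 6.36 in P467L and at 6.67, 6.35, 6.33 and 6.53 in NT artery. Both had higher means in P467L artery, by 0.22 and 0.23, less than their P467L SDs of 0.26 and 0.30. In P467L replicate 3 C1qc was at 6.36 where C1qa was high, at 6.57, while in P467L replicate 2 both were at their highest. Pearson's r was 0.72 between C1qb and C1qc, 0.52 between C1qa and C1qb and -0.066 between C1qa and C1qc, with Spearman's rho of 0.71, 0.54 and 0. None of the 3 pairs passed (exact permutation p = 0.0655 or higher, adjusted 0.196 or higher), and without the farthest arrays r was 0.25, 0.25 and -0.38.

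Further macrophage genes were read from lists chosen for their role. Of 13 measured genes of perivascular resident macrophages 9 had higher and 4 lower means in P467L artery (median difference 0.063), and 0 passed in either direction. Lyve1, a hyaluronan receptor of macrophages beside vessels and of lymphatics, was at 7.68, 8.15 and 6.90 in P467L and at 7.60, 7.11, 7.19 and 6.99 in NT artery. Its order of mice was close to that of the marker mean, with r = 0.98 as a description over the 7 arrays. The 3 lymphatic markers had r of 0.27 (Prox1), 0.26 (Pdpn) and 0.79 (Reln) with the same mean, so macrophages and lymphatics as sources of Lyve1 cannot be told apart. F13a1, the A subunit of clotting factor XIII that resident macrophages make, had r = 0.95 and a difference of 0.18. The chemokine gene Pf4 differed by 0.12 and the carbonyl reductase gene Cbr2 by -0.028. Stab1, the scavenger receptor stabilin, stood at 6.81 on 6 arrays and 6.74 in P467L replicate 3.

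Of the receptors and kinases that work with Tyrobp or Fcer1g, 7 of 9 had higher and 2 lower means, with a median of 0.073 and 0 passing. The Fc receptor gene Fcgr3 was at 6.81, 6.82 and 6.57 in P467L and at 6.54, 6.31, 6.59 and 6.59 in NT artery, 0.23 apart (95% interval -0.016 to 0.47). Trem2, a lipid-sensing receptor that signals through DAP12, differed by 0.20. Fcgr1 and Syk, the high-affinity Fc receptor and the kinase that binds the adaptors, were tied on 4 or more arrays and differed by 0.015 and 0.068. The mean deviation of these 9 genes was 0.0037 to 0.077 in P467L and -0.059 to 0.0003 in NT artery, a gap of little width, and 2 of 23 lists showed no overlap of this mean. Among the ligands of the CSF1 receptor, Csf1 stood at 6.71 on 6 arrays and 6.72 on 1, and Il34 differed by -0.12. Spi1, the gene of PU.1, was at 6.01, 5.92 and 6.01 in P467L and at 5.88, 5.88, 5.92 and 5.94 in NT artery, and its r with the marker mean was -0.21. In that list 3 of 8 genes had higher and 5 lower means, with a median of -0.023 and 0 passing.

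Complement, lysosomal and monocyte genes gave 0 passing genes as well. Of 5 complement genes 4 had higher means and 1 a lower one, with a median of 0.22, and the receptor gene C3ar1 differed by 0.43, about its SDs of 0.39 and 0.38. Of 12 lysosomal and phagocytic genes 10 had higher and 2 lower means, with a median of 0.065. Ctss, cathepsin S, was at 8.14, 8.42 and 7.36 in P467L and at 7.84, 7.74, 7.32 and 7.26 in NT artery, whereas Ctsc, Lgmn and Lamp1 differed by -0.018, 0.0075 and 0.065. Of 5 monocyte genes 4 had higher means and 1 a lower one, with a median of 0.061. Cx3cr1, the fractalkine receptor, was at 6.43, 6.79 and 6.98 in P467L and at 6.43, 6.26, 6.24 and 6.56 in NT artery, with P467L replicate 3 the highest array, and had r = 0.081 with the marker mean. Ccr2, the receptor by which monocytes enter tissue, differed by -0.071 and Plac8 by 0.061.

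Activation genes did not lean one way. Of 10 inflammatory activation genes 6 had higher and 4 lower means, with a median of 0.016, Il1b at 0.024, Tnf at -0.035 and Cd86 at -0.015. Of 10 alternative activation genes 4 had higher and 6 lower means, with a median of -0.025. Retnla, a secreted protein of alternatively activated macrophages, was at 9.89, 10.73 and 9.07 in P467L and at 10.49, 9.74, 9.40 and 9.39 in NT artery and its means were 0.14 apart, below the SDs of 0.83 and 0.52. Mgl2 differed by -0.038 and Il10 by 0.023. The 4 measured MHC class II genes split 2 and 2, with a median of 0.042, H2-Aa at 0.11 and H2-Ab1 at -0.0042. Of 12 general leukocyte genes 10 had higher means and 1 a lower one, with a median of 0.068, Laptm5 at 0.16, Cd53 at 0.083 and Ptprc, the gene of CD45, at 0.012.

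Markers of other cells of blood and vessel were read beside these values. In all 12 of these lists 0 genes passed in either direction. The medians were 0.0042 for 6 dendritic cell markers (3 higher, 3 lower), 0.015 for 10 T and NK cell markers (6 and 4), 0.0083 for 6 B cell markers (4 and 2), -0.0075 for 10 neutrophil markers (4 and 6), 0.0075 for 7 mast cell markers (4 and 2) and 0.038 for 2 erythroid genes (2 and 0). Among cells of the vessel, fibroblast markers were higher in 11 of 13 (median 0.081). All 10 smooth muscle markers had lower means, with a median of -0.17. Their mean deviations were -0.19 to -0.040 in P467L and -0.028 to 0.18 in NT artery, the other list of the 2 without overlap. Adipocyte markers were lower in 9 of 10 with a median of -0.30, and NT replicate 1 stood at 0.84 against -0.33 to 0.098 on the other arrays. The median was 0.010 for 11 endothelial (7 higher, 3 lower), 0.12 for 3 lymphatic (2 and 1) and -0.0008 for 7 mesothelial markers (3 and 4). Of the 183 genes of the 22 lists, 6 had groups that did not overlap, against 2.57% of all rows. These were Dcn (decorin) and Fcer1a, higher in P467L, and Des, Smtn, Il6 and Egr2, lower in P467L. All 6 are named, some of them only after their values were seen. The part of these cells in the values of the macrophage markers was not tested.

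The 22 lists differed in how closely they ran with the marker mean over the 7 arrays. As a description, Pearson's r was 0.97 for general leukocyte, 0.96 for perivascular macrophage, 0.95 for complement and 0.94 for lysosomal genes. It was 0.84 for mast cell, 0.82 for MHC class II, 0.80 for endothelial, 0.74 for alternative activation, 0.69 for fibroblast, 0.67 for lymphatic, 0.65 for monocyte and 0.41 for adipocyte genes. Other macrophage lists were less close, at 0.32 for receptors and kinases of the adaptors, 0.19 for CSF1 ligands and transcription factors and 0.061 for inflammatory activation. Dendritic cell markers stood at 0.19, smooth muscle at 0.0011, neutrophil at -0.005 and erythroid at -0.083. The lowest values were -0.48 for mesothelial, -0.53 for T and NK cell and -0.73 for B cell markers. The points of each value are the same 7 RNA preparations.

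**Figure D5:**
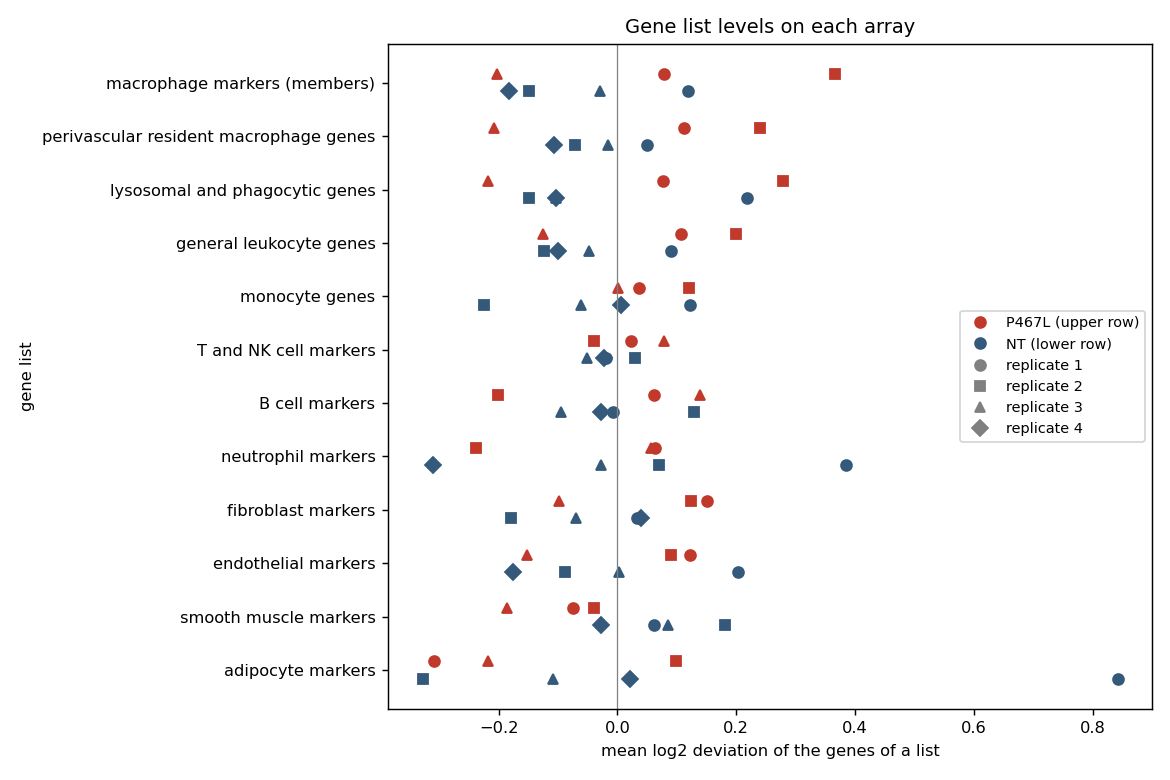
Mean log2 deviation of the genes of a list from their own means over the arrays (x axis) for 12 lists (y axis), 1 symbol per array, with P467L in the upper and NT in the lower row of each list. Macrophage, lysosomal and general leukocyte genes share P467L replicate 2 as the highest array, and smooth muscle markers lie lower on all P467L than on all NT arrays.

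The order of the mice along the markers was shared by rows outside the macrophage lists. The mean marker deviation ran with the first principal component of all rows other than the markers, which held 33.7% of the variance, at r = 0.88 and rho = 0.96, and at r = 0.91 without P467L replicates 2 and 3. It ran with the upper quartile of the array at r = 0.83. Of the 23049 rows not tied on all arrays, 7.83% had r of at least 0.8 with the marker mean and 3.84% had r of -0.8 or lower. Among the 4267 with an SD of at least 0.2 and a mean of at least the median row, 16.8% had r of at least 0.8. After removal of that component from each gene the median r of the 36 marker pairs was 0.34 in place of 0.60. Of the 4 pairs that had passed, Adgre1 with Aif1 was then at 0.96, Mrc1 with Cd163 at 0.93, Tyrobp with Mrc1 at 0.69 and Tyrobp with Cd163 at 0.49. The part of RNA quality or amplification in this component was not tested.

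Among 1842 genes on no list that met the same limits of SD and mean, the 10 most like the marker mean had r from 0.96 to 0.99 over the 7 arrays. They were Herc1 and Vps50, with a ubiquitin ligase and an endosomal transport protein as products, the mRNA cap methyltransferase gene Rnmt, Tmx2, the cohesin acetyltransferase gene Esco1, the lysosomal membrane protein gene Scarb2, the metallothionein gene Mt1, the lipid kinase gene Pik3c2a, Rbbp5 and Mga. Herc1 was at 6.99, 7.48 and 6.61 in P467L and at 7.11, 6.80, 6.91 and 6.66 in NT artery, the same order of mice as the marker mean (rho = 1).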

How the data were processed

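The authors deposited log2 values, 1 per array and row, and the submitters' processing notes name Affymetrix Power Tools, RMA and mm9. The sources used here give no versions. RNA was amplified from a small input before labelling, per the labels' protocols. Of 23332 rows, 14996 had 1 gene symbol, 1019 several and 7317 none, by the platform annotation. A gene with several rows was represented by its brightest row, and 4671 rows were tied on 4 or more arrays. No column was left unmapped to a sample.

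All rows were fitted with limma 3.58.1 in R 4.3.3 (lmFit, eBayes, no filter, no covariate), P467L minus NT, with Benjamini-Hochberg adjustment over all rows, a threshold of 0.05 and 95% intervals. The fit and the exact correlation test were tested on simulated data. Pairs of markers were tested by exact permutation of the arrays in Python 3.11.15. The 22 further lists were described by counts and medians.

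The markers, lists and tests were chosen with earlier results of these data known. Named genes are the markers, genes marked in each list for their role, and the 10 genes most like the marker mean. Pdpn, Reln and the listed genes whose groups did not overlap are named as well. Some of those without overlap were named only after their values were seen. The alternatives were normalization, filters on dim or tied rows, moderation, array weights, a block, covariates and leaving out arrays.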

Additional observations from a re-analysis of the deposited data

Results flagged for a closer look

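Among 60 genes and means examined in the 4 NT mice, 9 (15%) had 1 mouse far from the other 3, where chance alone flags about 1 in 20, and none of the 9 is a marker or the marker mean. Ties make such flags easy: Syk was at 5.73 in NT replicate 4 against 5.84 in the others, Csf1 at 6.72 in NT replicate 2 against 6.71, Laptm5 at 6.61 in NT replicate 4 against 6.62, Pdgfra at 6.87 in NT replicate 2 against 7.10 and Msln at 5.34 in NT replicate 1 against 5.53. The macrophage gene Pf4 was at 7.71 in NT replicate 1 against 7.16 to 7.24, and H2-Ab1, an MHC class II gene, at 7.81 in NT replicate 1 against 7.29 to 7.35. The ligand gene Il34 was at 6.57 in NT replicate 1 against 6.51 to 6.52, and the mast cell gene Cpa3 at 5.46 in NT replicate 3 against 5.54 to 5.55.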

How the results depend on the processing

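Under the alternatives, 168 marker differences were computed, 0 passed an adjusted p of 0.05 (the smallest was 0.322) and 12 had the sign turned. With the replicate number as a block Tyrobp was at -0.010, Mrc1 at -0.037 and Cd163 at -0.033. In that fit 6 of 9 markers were higher, as were 10685 of all 23332 rows. The labels state no link between same-numbered arrays. Deviations of these arrays correlated at 0.12, -0.20 and -0.09, against -0.33 to 0.28 for arrays of other numbers. So few values cannot show whether the numbers pair the mice. With array weights C1qa was at -0.23 and the median difference was 0.17. In that fit 8 of 9 markers were higher, as were 12297 of all 23332 rows. With 1 array left out, differences ran from -0.205 to 0.51 for Tyrobp, -0.005 to 0.05 for Csf1r, -0.2525 to 0.3375 for Mrc1 and -0.1725 to 0.2275 for Cd163, and kept their sign for Fcer1g, Adgre1, Cd68, Aif1 and C1qa. The count of higher markers ran from 5 to 9, the median difference from 0.0075 to 0.23 and covarying pairs from 0 to 6. Non-overlapping markers ran from 0 to 3. The 3 came without P467L replicate 3, where 5.57% of all rows were higher without overlap. A further quantile normalization of all arrays gave 1, and the share of all rows there is not given. With 6 arrays the smallest exact p is 0.0028, or 0.10 after multiplication by the 36 pairs, so that a single pair cannot pass. Without P467L replicate 1, 6 pairs passed, and without NT replicate 1, 3 did. Without P467L replicate 2, P467L replicate 3, NT replicate 2, NT replicate 3 or NT replicate 4, 0 pairs passed. The median r of the 36 pairs fell most without P467L replicate 2, to 0.38, against 0.60 with all arrays. Without P467L replicate 3 that median was 0.72. With deviations from the group means 11 pairs passed. That test permutes the deviations freely over the arrays, although subtracting the means ties them within a group and the SDs differ between groups. Its p-values can therefore be too small, and the count is not a measure of stronger covariation. Over the whole array 0 rows passed under any alternative (724 at an unadjusted p of 0.05 in the main setting). With P467L replicates 2 and 3 left out, chosen after seeing the data, P467L replicate 1 alone stood against the 4 NT mice. The median marker difference was then 0.17, which describes that 1 mouse and not the group.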

Other observations

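Both rows annotated to Lyz1 and Lyz2 together, lysozyme genes of macrophages and of the gut that these rows cannot separate, ran like the markers. The first was at 8.44, 8.90 and 7.53 in P467L and at 8.60, 7.83, 8.08 and 7.76 in NT artery, and the second at 8.46, 8.59 and 7.50 in P467L and at 8.43, 7.51, 7.99 and 7.99 in NT artery. Their differences were 0.22 and 0.20, less than the P467L SDs of 0.70 and 0.60, and their r with the marker mean was 0.97 and 0.87 as a description over the 7 arrays.

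With the first principal component of the rows other than the markers as a covariate, an alternative chosen after seeing the data, the standard errors of 8 of 9 markers were smaller, and that of C1qa was larger, at 0.22 in place of 0.20. Aif1 differed by 0.37 with a standard error of 0.052 in place of 0.12 (limma, unadjusted p = 0.000814, adjusted p = 0.599), Adgre1 by 0.17 with 0.036 in place of 0.067 (adjusted p = 0.690) and Cd68 by 0.30 with 0.077 in place of 0.18 (adjusted p = 0.808). Over all rows 1217 had an unadjusted p under 0.05 in that fit, against 724 without the covariate, and 0 passed in either. Tyrobp, Mrc1 and Cd163 differed by 0.18, 0.071 and 0.049 in it.

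Fcer1a, the chain of the IgE receptor that pairs with the Fcer1g product on mast cells, was noticed after its values were seen. It was dim, at 3.72, 4.22 and 3.75 in P467L and at 3.49, 3.28, 3.48 and 3.43 in NT artery without overlap, a difference of 0.48 (limma, unadjusted p = 0.0130, adjusted p = 1).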
